A study of Homo sapiens with 14 samples.

Results

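The transient FoxA1 knockdown in LNCaP cells was measured on 2 arrays, 1 of cells given a FoxA1 siRNA (siFoxA1) and 1 of cells given a control siRNA (siCtrl), out of 14 arrays in the series. The 2 arrays were chosen by their titles, not by any measured value. LNCaP is an androgen-sensitive human prostate cancer line, grown from a lymph node metastasis, with luminal epithelial features. Both siRNA groups were unmodified LNCaP cells kept in RPMI with 10% serum. The labels' protocols add that some experiments used charcoal-stripped serum for 3 days and then the synthetic androgen R1881 at 1 nM for 24 h, and they do not say whether the siRNA cells were among these. The siRNA sequence, its dose and the time between transfection and RNA extraction are not given in the sources used here. The labels state that these arrays have no replicates, so every difference below compares 1 array with 1 array, has no error of its own and was given no test.

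The other knockdown arrays were used beside this pair. LNCaP cells with a FoxA1 shRNA (shFoxA1, 4 arrays) and with a control shRNA (shCtrl, 4 arrays) were read at another core facility. They form 4 pairs by title, which are replicate 1, replicate 2, R1881 and hormone-deprived. The prostate cancer line 22RV1 with stable FoxA1 shRNA (1 array) and with control shRNA (1 array) lies in the same table as the siRNA arrays. The same charcoal-stripped serum and R1881 protocol is listed for all these shRNA arrays. The titles of replicates 1 and 2 and of the 22RV1 arrays name no androgen condition. None of these pairs shares an array with the siRNA pair.

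FoxA1 is a forkhead transcription factor. Its winged-helix domain binds forkhead sequences in closed chromatin and opens them for other factors, a role called pioneer activity. In luminal cells of prostate and breast it is known for opening sites to which steroid hormone receptors then bind. A loss of FoxA1 has therefore been studied for what happens to androgen-responsive genes, to the cell cycle and to epithelial identity.

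Mean probe intensity was 435.6 on the siFoxA1 array and 446.9 on the siCtrl array. The background, taken as the mode of the intensities, lay at 96.33 with siFoxA1 and 94.95 with siCtrl. Detection meant a signal over that mode by more than 1.645 background SD, which put 23312 of 47315 probes (49.3%) above it with siFoxA1 and 24434 (51.6%) with siCtrl. Of 20044 genes with a named probe, 13785 were detected on at least 1 of these arrays and 11606 on both. Below, an intensity is the deposited value of the gene's brightest probe, and a difference is siFoxA1 minus siCtrl in log2 units after background correction and quantile normalization. Where the dimmer array did not detect the probe, the fold is also given as a lower bound against that array's detection limit, as "at least".

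FOXA1, the targeted gene, had an intensity of 2590 with siFoxA1, against 4763 with siCtrl. This is a difference of -0.81, or 1.75-fold lower with siFoxA1, on the only probe of the gene. The label and the target agree in direction, and FOXA1 mRNA stayed far above background on the siFoxA1 array. The same probe differed by -1.11 in the 22RV1 shRNA pair. In the LNCaP shRNA pairs it differed by -1.10 in replicate 1, -1.28 in replicate 2, -0.98 with R1881 and -0.73 in the hormone-deprived pair. The siRNA difference was thus smaller than in 3 of the 4 LNCaP shRNA pairs and than in 22RV1. FOXA2 and FOXA3, its paralogs, were not detected on either siRNA array.

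Among the 13785 genes, 300 (2.18%) were at least 2-fold higher with siFoxA1, and 162 (1.18%) were lower by that much, 462 (3.35%) in all. The larger the fold, the more the higher genes outnumbered the lower ones. At 3-fold the counts were 112 higher and 11 lower, at 4-fold 64 and 4, and at 8-fold 18 and 0. The median difference over all genes was -0.03, and 62.9% of genes were within 1.25-fold. Of the 462 genes, 62 were undetected on the dimmer array, 43 of them among the higher and 19 among the lower genes. Just inside the 2-fold line, within 0.05 log2 units of it, lay 23 higher and 37 lower genes, and as close outside it lay 26 and 38.

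The series offers 1 view of how far apart replicate arrays lie, and it comes from the other facility. The shCtrl replicates 1 and 2 were at least 2-fold apart in 204 of 10422 genes (1.96%), and the shFoxA1 replicates 1 and 2 in 364 of 10789 (3.37%). The siRNA pair, with 3.35%, is therefore above the control replicates and near the spread between those knockdown replicates. The shRNA pairs ranged from 1.83% in the hormone-deprived pair, through 3.77% with R1881 and 5.97% in replicate 2, to 15% in replicate 1, which stands apart from the others. Both replicate comparisons include an array of that replicate 1 pair. A count of 2-fold genes alone thus cannot decide whether the siRNA pair exceeds replicate spread, since gene sets, normalization and facility differ.

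**Figure D1:**
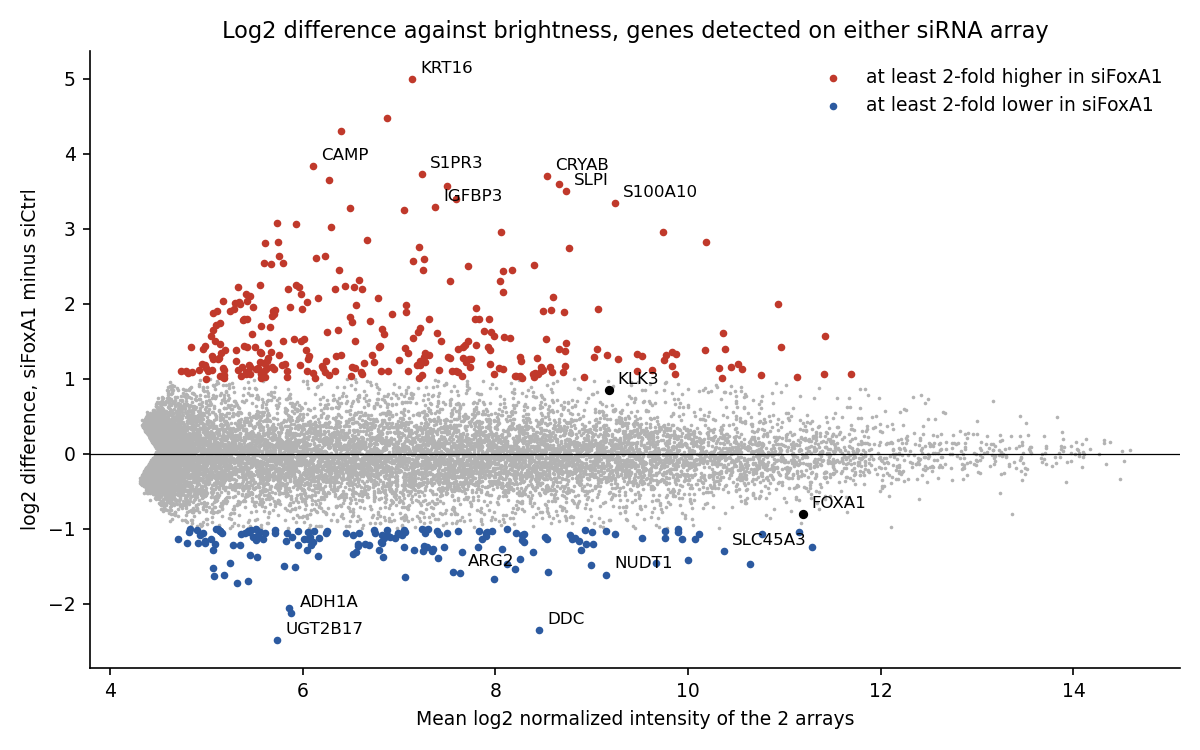
Log2 difference (siFoxA1 minus siCtrl, vertical axis) against the mean log2 normalized intensity of the 2 arrays (horizontal axis) for the 13785 genes detected on either array. Each point is a gene, red for at least 2-fold higher and blue for at least 2-fold lower with siFoxA1, and black for FOXA1 and KLK3. The points reach up to 5.00 (KRT16) and down to -2.48 (UGT2B17).

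Genes read by several probes gave the only repeat measurement inside the pair. In 3007 genes both of the 2 brightest probes were detected on both arrays, and their differences had an SD between probes of 0.22 and a correlation of 0.74 across genes. These probes were read on the same arrays, so they repeat the probe readout and neither the hybridization nor the cells. In 98 of these genes the brighter probe was at least 2-fold apart. The second probe had the same sign in 93 of the 98, reached 2-fold in that direction in 50, and reached 2-fold in the opposite direction in 0.

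The 15 genes furthest above siCtrl with siFoxA1 included 3 keratin genes and a keratin-associated protein. Keratin 16 (KRT16), a type I keratin of activated epidermis, had an intensity of 1135 with siFoxA1, against 105.0 with siCtrl. Its difference was 5.00, and a second probe gave 3.76. The probe of the pseudogene KRT16P2 read 790.0 with siFoxA1 and 105.0 with siCtrl, a difference of 4.47. Probes of KRT16 and its pseudogene may share sequence, so these are not separate observations. Keratin 6C (KRT6C), a type II keratin that pairs with keratin 16 in wounded skin, read 587.5 with siFoxA1 and 124.7 with siCtrl (3.25), with the same caution about its near-identical relatives. KRTAP13-2, a hair keratin-associated protein, read 539.9 with siFoxA1 and 95.4, below detection, with siCtrl, at least 16.9-fold higher. In these keratin-family genes the siCtrl array stood at or close to background and the siFoxA1 array clearly above it.

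Several of the 15 encode secreted or calcium-binding proteins. CAMP, the precursor of the antimicrobial peptide LL-37, had 382.5 with siFoxA1 and 92.8 with siCtrl, where it was undetected, at least 11.7-fold higher. PGLYRP2, an amidase that cuts bacterial peptidoglycan, had 887.1 with siFoxA1 and 135.9 with siCtrl, a difference of 3.56. SLPI, a secreted inhibitor of leukocyte elastase, had 2088 with siFoxA1 and 228.5 with siCtrl (3.50). SERPINA3, the acute-phase inhibitor of chymotrypsin-like proteases, had 2060 with siFoxA1 and 216.2 with siCtrl (3.60). S100A9, a subunit of the calcium-binding protein calprotectin, had 409.3 with siFoxA1 and 109.5 with siCtrl (3.28). S100A10, the annexin A2 ligand, had 2835 with siFoxA1 and 312.8 with siCtrl (3.34), and its second probe gave 2.90. SLPI, SERPINA3 and S100A10 were well above background on both arrays, so their differences do not rest on the detection limit.

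The rest of the 15 had other roles. S1PR3, a receptor for sphingosine 1-phosphate, read 780.3 with siFoxA1, against 123.0 with siCtrl (3.72). CRYAB, a small heat shock protein that keeps proteins from aggregating, read 1952 with siFoxA1 and 198.2 with siCtrl (3.70). CA4, a membrane-anchored carbonic anhydrase, read 897.2 with siFoxA1 and 144.5 with siCtrl (3.40). IGFBP3, which binds insulin-like growth factors outside the cell, read 734.9 with siFoxA1 and 136.5 with siCtrl (3.29), and a second probe gave 2.50. TMEM100, a small membrane protein, read 399.0 with siFoxA1 and an undetected 100.9 with siCtrl, at least 12.3-fold higher.

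The 15 genes furthest below siCtrl with siFoxA1 included several enzymes. DDC, the aromatic amino acid decarboxylase, also an androgen-repressed gene, read 252.4 with siFoxA1, against 1224 with siCtrl, a difference of -2.36. It was the only one of the 4 largest that was well above background on the siFoxA1 array. UGT2B17, which glucuronidates androgens, read 102.8 with siFoxA1, where it was undetected, and 228.5 with siCtrl, at least 5.50-fold lower. Its other detected probes were less far apart, down to a difference of -0.26. UGT2B15, with the same function, read 96.9 with siFoxA1 and 144.7 with siCtrl, at least 2.60-fold lower. The class I alcohol dehydrogenases ADH1A and ADH1C read 108.9 and 109.1 with siFoxA1, against 224.4 and 217.7 with siCtrl, differences of -2.13 and -2.06 on probes that may share targets. RDH12, a retinol dehydrogenase, was undetected with siFoxA1 and read 149.3 with siCtrl, at least 2.77-fold lower.

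Of the remaining lower genes, several were brighter and so less bound to the detection limit. NUDT1, which removes oxidized nucleotides, read 468.4 with siFoxA1, against 1540 with siCtrl (-1.61), and a second probe gave -0.92. ARG2, the mitochondrial arginase, read 203.7 with siFoxA1 and 527.5 with siCtrl (-1.58). TARP, the T-cell receptor gamma alternate-frame transcript made by prostate epithelium, read 326.5 with siFoxA1 and 975.9 with siCtrl (-1.57). The relaxin gene RLN2, a peptide hormone of the prostate, read 158.8 with siFoxA1 and 377.9 with siCtrl (-1.65), while its second probe gave -0.18. TRIM49D1, TRIM49D2 and TRIM48, close relatives, read 236.7, 197.1 and 273.2 with siFoxA1, against 697.4, 501.1 and 764.2 with siCtrl. Their differences of -1.67, -1.57 and -1.54 may be 1 signal seen by cross-reacting probes. MMP16, a membrane-type metalloproteinase, was at least 3.16-fold lower, with a second probe at -0.59, and ZPLD1 differed by -1.69 at intensities of 104.7 with siFoxA1 and 166.8 with siCtrl.

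**Figure D2:**
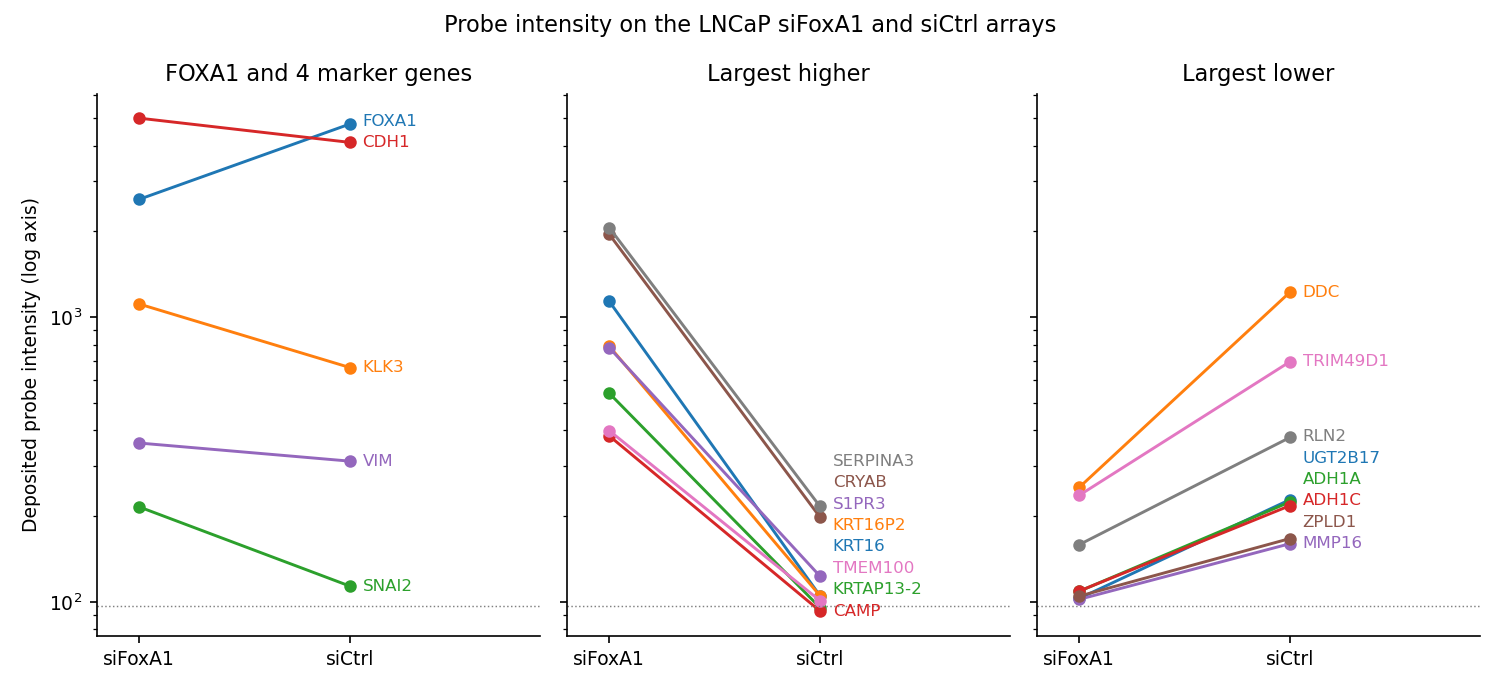
Deposited probe intensity (log axis) on the siFoxA1 array (left) and the siCtrl array (right) for FOXA1 and 4 marker genes, the 8 largest higher and the 8 largest lower genes. Each line joins the 2 values of a gene, and the dotted line marks the background mode of the siFoxA1 array, 96.33. Most of the higher genes lie near background with siCtrl, and several of the lower genes lie near it with siFoxA1.

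Androgen-responsive genes did not move as 1 block. Of 26 measured genes that androgens activate, 14 were higher and 12 lower with siFoxA1, with a median difference of 0.08 (all genes, -0.03). At 2-fold or more, 4 were higher (2.18% of all genes) and 1 was lower (1.18% of all genes). KLK3, which encodes prostate-specific antigen, read 1111 with siFoxA1, against 664.6 with siCtrl, a difference of 0.85. It was higher in the other pairs as well, by 1.15 in shRNA replicate 1, 0.95 in replicate 2, 0.93 with R1881, 2.21 hormone-deprived and 1.18 in 22RV1. Its neighbour KLK2, a related kallikrein protease, read 756.6 with siFoxA1 and 379.5 with siCtrl (1.16). TRPM8, the cold-sensing ion channel, read 337.7 with siFoxA1 and 137.1 with siCtrl (2.07). The transcription factor MAF and the stress-responsive NDRG1 differed by 1.93 and 1.57, and a second MAF probe by 0.95. Against these, SLC45A3, the membrane transporter known as prostein, read 1207 with siFoxA1 and 3196 with siCtrl (-1.30), C1orf116 differed by -0.88 and the condensin subunit NCAPD3 by -0.71.

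Genes that androgens repress were mostly lower with siFoxA1. Of 11 measured, 3 were higher and 8 lower, and 6 were at least 2-fold lower, a share to be read against 1.18% of all genes. Of the 8 lower genes, 4 were undetected with siFoxA1, and of the 7 genes detected on both arrays 4 were at least 2-fold lower. The median difference of the 11 was -1.05. The 6 were UGT2B17, DDC, UGT2B15, BCHE (butyrylcholinesterase, -1.22, second probe -0.54), UGT2B11 (-1.06) and UGT2B28 (-1.05), and 4 of them are neighbours in the UGT2B family, whose probes may share sequence. CAMK2N1, an inhibitor of a calmodulin-dependent kinase, was on the other side at 0.87, with 5202 for siFoxA1 and 2984 for siCtrl. The median of this list in the other pairs was -2.31 in shRNA replicate 1, -1.34 in replicate 2, -0.64 with R1881, -1.16 hormone-deprived and -0.59 in 22RV1. All 6 pairs thus had a median below 0.

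The list of FOXA factors and the transcription factors that work with FoxA1 gave a mixed picture. Of 12 measured, 7 were higher and 5 lower, with 2 at least 2-fold higher (2.18% of all genes). FOXA1, the siRNA target, is itself a member and 1 of the 5 lower genes. Of the 11 detected on both arrays, 6 were higher and 5, again with FOXA1, lower. TLE1, a Groucho-type corepressor, read 1000.0 with siFoxA1, against 309.2 with siCtrl (1.90). NFIB, a nuclear factor I protein reported to bind beside FoxA1, read 974.2 with siFoxA1 and 414.3 with siCtrl (1.37), with a second probe at 1.53. GRHL2, a grainyhead factor of epithelial cells, differed by 0.80 and SPDEF, an ETS factor of luminal cells, by -0.55. HOXB13 and GATA2, which share many prostate enhancers with FoxA1, differed by 0.02 and 0.15.

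The luminal markers that define the line were detected. Of 16 measured, 9 were higher and 7 lower, with a median of 0.17. KRT8, a simple-epithelial keratin, read 3086 with siFoxA1 and 1436 with siCtrl (1.15), whereas its partner KRT18 read 596.4 with siFoxA1 and 814.7 with siCtrl (-0.36). FOLH1, prostate-specific membrane antigen, differed by -0.00 (second probe -0.52), and MSMB, a secreted protein of the prostate, by -0.86. Of 6 basal markers with a probe, KRT14 was detected (141.3 with siFoxA1 and 111.6 with siCtrl, 0.96), and KRT5, KRT15, ITGB4, NGFR and DLK1 were at background on both arrays. The 6 summed to 625.6 with siFoxA1 and 595.1 with siCtrl.

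Most markers of other cells were undetected or close to background, except CD68, VWF, ENO2 and VGF. COL1A2, COL3A1, LUM, DES and MYH11 of fibroblasts and muscle were undetected on both arrays, as were PTPRC, CD3E, PECAM1, CDH5, KDR, LYZ and LAPTM5 of blood and endothelium. The 10 fibroblast and muscle markers summed to 1017.7 with siFoxA1 and 1005.4 with siCtrl, and the 11 leukocyte and endothelial markers to 1603.6 with siFoxA1 and 1443.4 with siCtrl. In the second list CD68, a lysosomal glycoprotein of macrophages that many other cells also make, read 527.5 with siFoxA1 and 294.3 with siCtrl (1.06, another probe 1.85), and VWF read 161.0 with siFoxA1 and 280.1 with siCtrl (-1.08). The 11 neuroendocrine markers with a probe, 6 of them detected, summed to 1586.6 with siFoxA1 and 1317.5 with siCtrl, of which ENO2, an enolase, gave 286.5 with siFoxA1 and 203.0 with siCtrl (0.79) and VGF, a neuropeptide precursor, gave 401.3 with siFoxA1 and 231.5 with siCtrl (1.10).

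Cell cycle genes were lower as a group. All 25 measured genes of G2 and mitosis were lower with siFoxA1, 10 of them at least 2-fold (1.18% of all genes), with a median difference of -0.93. PTTG1, the securin that holds back separase, read 2392 with siFoxA1, against 5741 with siCtrl (-1.25). AURKB, the kinase of the chromosomal passenger complex, read 465.8 with siFoxA1 and 1153 with siCtrl (-1.21), and PLK1, a mitotic kinase, 144.5 with siFoxA1 and 253.0 with siCtrl (-1.20). CDC20, the activator of the anaphase-promoting complex, read 2338 with siFoxA1 and 5044 with siCtrl (-1.05). The smallest differences were those of BUB1B (-0.18), MKI67 (-0.54) and KIF23 (-0.57, second probe 0.18). In RNA of a whole culture, fewer dividing cells and less of these transcripts per cell cannot be told apart.

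Genes of G1/S and DNA replication showed the same direction. Of 22 measured, 21 were lower and 1 higher, 3 at least 2-fold lower (1.18% of all genes), with a median of -0.68. TK1, thymidine kinase, read 1085 with siFoxA1, against 2455 with siCtrl (-1.08). FEN1, the flap endonuclease of lagging-strand synthesis, read 1745 with siFoxA1 and 3873 with siCtrl (-1.07), with a second probe at -1.12. MCM2, a subunit of the replicative helicase, read 593.6 with siFoxA1 and 1335 with siCtrl (-1.07). E2F1, an activator of these genes, was the 1 higher gene at 0.25. Median differences of the mitotic list elsewhere were -3.06 in shRNA replicate 1, -1.005 in replicate 2, -0.96 with R1881, -0.48 hormone-deprived and -0.76 in 22RV1, all below 0.

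Inhibitors of the cycle ran the other way in part. Of 8 measured genes for inhibitors of cyclin-dependent kinases and D cyclins, 6 were higher (46.2% of all genes). Among them 2 were at least 2-fold higher (2.18% of all genes). The measured D cyclins lay on both sides of 0, with CCND1 at 0.17 and CCND3 at -0.28. CDKN2B, which encodes p15, read 290.5 with siFoxA1, against 110.9 with siCtrl (2.63), but its 3 detected probes ranged down to 0.41. CDKN1C (p57) differed by 1.15 and CDKN1A (p21), among the brightest of these at 8847 with siFoxA1 and 5950 with siCtrl, by 0.59, but a second CDKN1A probe gave 0.02. The p53 target list, 17 genes measured, had a median of -0.08 and 0 genes at least 2-fold apart.

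**Figure D3:**
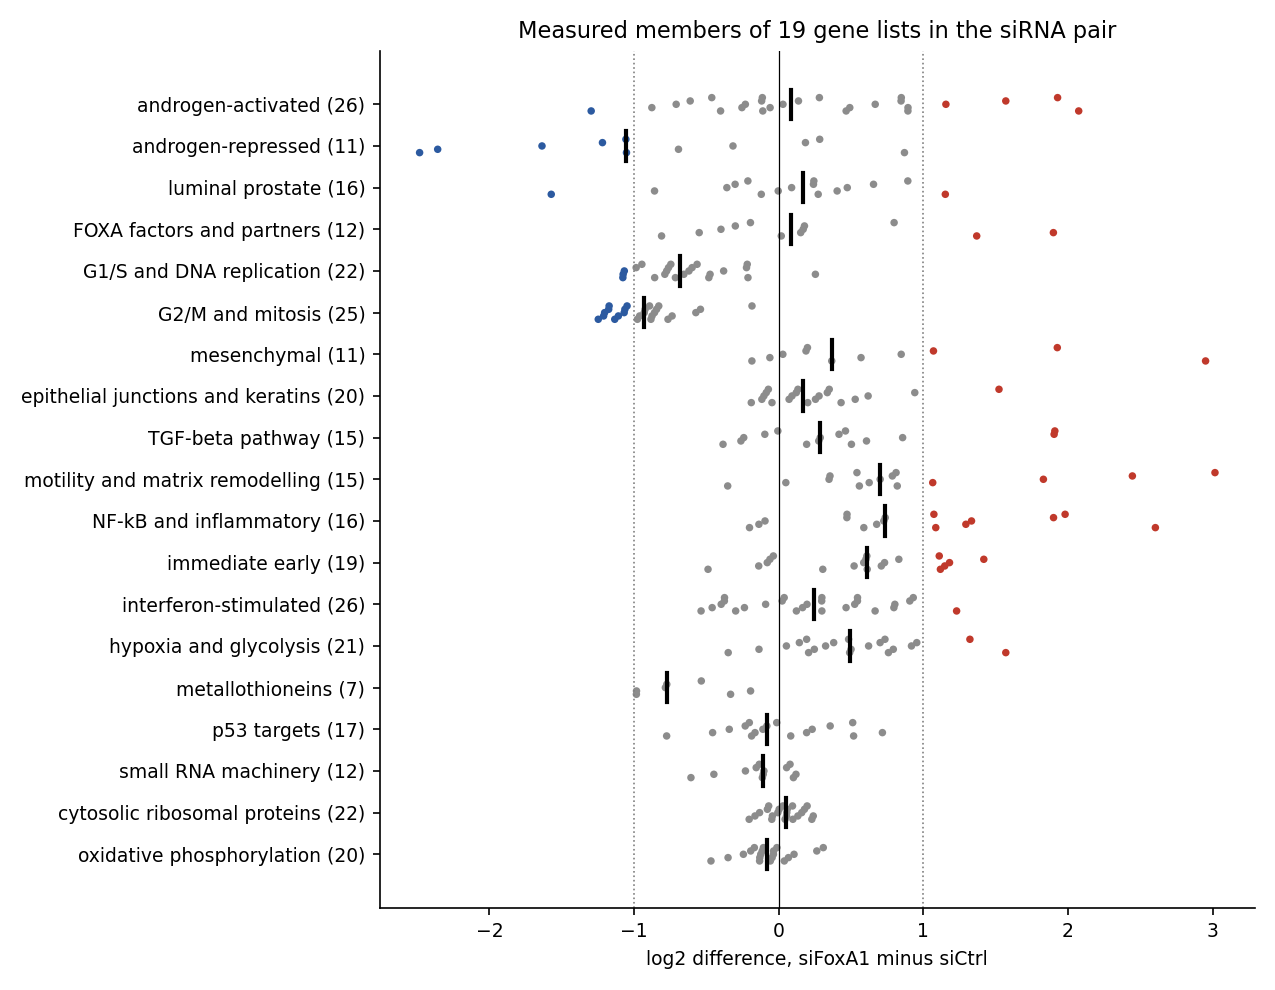
Log2 difference (siFoxA1 minus siCtrl) of the measured members of 19 gene lists, with the number measured in parentheses. Each point is a gene, red or blue past the dotted lines at 2-fold, and the black bar is the list's median. All 25 mitotic genes lie left of 0, with the bar at -0.93, and the bar of the androgen-repressed list lies at -1.05.

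SNAI2 and the other genes of the mesenchymal state were a mixture. SNAI2 (Slug), a repressor of epithelial genes, read 215.4 with siFoxA1, against 113.5 with siCtrl (1.93), and its second probe gave 0.90. VIM (vimentin) read 361.0 with siFoxA1 and 311.8 with siCtrl (0.37), with a second probe at 0.90, and CDH1 (E-cadherin), the junction protein that Slug represses, read 4994 with siFoxA1 and 4105 with siCtrl (0.35). ACTA2, smooth muscle actin, read 3502 with siFoxA1 and 474.1 with siCtrl (2.95). LOX, a collagen cross-linker, differed by 1.07, at least 1.83-fold, and SNAI1, ZEB1 and ZEB2 were undetected. In all, 9 of 11 measured mesenchymal genes were higher, 3 at least 2-fold (2.18% of all genes), with a median of 0.37. Of the 7 detected on both arrays 6 were higher, 2 at least 2-fold. The epithelial list was on the same side, with 14 of 20 higher, a median of 0.17 and KRT80 at 1.52.

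Contractile genes were gathered by symbol after the values were seen. Of 4 muscle-type actins with a probe, 2 were detected on both arrays, both at least 2-fold higher (2.18% of all genes), and 1 on the siFoxA1 array alone. ACTG2 read 225.7 with siFoxA1 and 113.6 with siCtrl (2.02), and ACTA1 read 171.5 with siFoxA1 and an undetected 93.9 with siCtrl, at least 3.90-fold higher. The myosin light chain MYL9 differed by 1.70, with a second probe at 2.14, and MYLK, the kinase that activates it, read 335.3 with siFoxA1 and 108.1 with siCtrl (3.02), with a second probe at 0.78. Of 11 measured myosin light chains and kinases, 7 were detected on both arrays, 5 of them higher and 2 lower, with MYL6B at -0.54 (1975 with siFoxA1 and 3034 with siCtrl) and MYL5 at -0.35. In the other pairs the actins did not move together. ACTA2 differed by 3.46 in shRNA replicate 1, 0.16 in replicate 2, 2.46 with R1881, 0.85 hormone-deprived and -0.06 in 22RV1, and ACTA1 by at most 0.36 in these 5.

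Of 15 measured genes of motility and matrix remodelling, 14 were higher and 4 at least 2-fold higher (2.18% of all genes), with a median of 0.70. MMP7 (matrilysin), a secreted metalloproteinase, read 963.9 with siFoxA1, against 225.2 with siCtrl (2.44), and its second probe gave 2.43. LAMB3, a laminin chain, read 183.0 with siFoxA1 and 107.6 with siCtrl (1.83), and EZR (ezrin), which ties membranes to actin, 7028 with siFoxA1 and 3522 with siCtrl (1.06, second probe 1.05). PLAU, urokinase, the 1 lower member at -0.35, was undetected with siFoxA1 (97.9) and near background with siCtrl (105.2). All 13 members detected on both arrays were higher, 4 of them at least 2-fold. The list's median was 1.20 in shRNA replicate 1, 0.58 in replicate 2, 0.41 with R1881, 0.17 hormone-deprived and 0.17 in 22RV1.

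Inflammatory genes were higher too. Of 16 measured members of the NF-kB list, 13 were higher (46.2% of all genes) and 7 at least 2-fold higher (2.18% of all genes), with a median of 0.73. The chemokine CCL2 read 274.3 with siFoxA1, against 109.1 with siCtrl (2.60). CXCL8 (interleukin 8) read 392.8 with siFoxA1 and 154.7 with siCtrl (1.98), and a second probe gave 0.85. TNF read 186.7 with siFoxA1 and 107.2 with siCtrl (1.90), and SOD2, the mitochondrial superoxide dismutase, 2189 with siFoxA1 and 895.4 with siCtrl (1.33, second probe 1.21). In 22RV1 the list's median was 0.07, and CCL2, CXCL8 and TNF differed by 0.06, 0.05 and -0.18. In LNCaP shRNA the medians were 1.90 in replicate 1 and 0.34 to 0.35 in the other pairs.

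The immediate early genes, which respond to growth factors within minutes, had 14 of 19 higher (46.2% of all genes) and a median of 0.61. Among them 5 were at least 2-fold higher (2.18% of all genes). Of the 16 detected on both arrays, 12 were higher, 5 of them at least 2-fold. KLF6 read 477.4 with siFoxA1, against 225.3 with siCtrl (1.42), and FOSL2, JUNB, IER3 and CCN2 differed by 1.18, 1.15, 1.12 and 1.11. The median of this list was 1.37 in shRNA replicate 1 but -0.15 in replicate 2, 0.01 with R1881 and -0.35 hormone-deprived, so it did not have the siRNA direction in all pairs.

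A double-stranded RNA given to cells can set off an interferon response, so interferon-stimulated genes and small RNA factors were examined. Of 26 measured interferon-stimulated genes, 18 were higher (46.2% of all genes) and 1, IFI27, at least 2-fold higher (2.18% of all genes), with a median of 0.25. Of the 24 detected on both arrays, 16 were higher and 8 lower. The list's median was 0.85 in shRNA replicate 1, -0.01 in replicate 2, 0.006 with R1881, 0.11 hormone-deprived and 0.04 in 22RV1. IFI27 read 205.5 with siFoxA1, against 132.2 with siCtrl (1.23). ISG20 and IRF1 differed by 0.93 and 0.91. The double-stranded RNA sensors of the list lay on both sides of 0, with OAS1 at 0.80, IFIH1 at 0.54, OAS2 at 0.53, TLR3 at 0.30, EIF2AK2 at 0.04, RIGI at -0.46 and OAS3 at -0.54. The 3 OAS1 probes ranged from 0.06 to 1.25. Of 12 measured proteins of the small RNA pathway, 4 were higher and 8 lower, 0 at least 2-fold apart. DICER1 and DROSHA, its 2 nucleases, differed by -0.23 (other DICER1 probes up to 0.29) and 0.08. Both arrays received an siRNA, so a response common to them would not show in this difference.

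Of 15 measured genes of the TGF-beta pathway, 10 were higher and 5 lower, with a median of 0.29. Among them 2 were 2-fold or more higher (2.18% of all genes). Of the 12 detected on both arrays, 8 were higher and 4 lower, with 1 at least 2-fold higher. TGFB3, a ligand, read 148.9 with siFoxA1 and an undetected 90.3 with siCtrl, at least 3.00-fold higher. It differed by 4.65 in shRNA replicate 1, 3.10 in replicate 2, 0.93 with R1881, 0.44 hormone-deprived and -0.46 in 22RV1. Of the targets, ID2, an inhibitor of helix-loop-helix factors, read 1056 with siFoxA1, against 321.0 with siCtrl (1.91, second probe 1.78), and the related ID1 read 2018 with siFoxA1 and 1173 with siCtrl (0.86, second probe 0.62).

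Growth factor and metabolic genes came next. Of 8 measured genes of the insulin-like growth factor axis 3 were higher and 5 lower. The 2 at least 2-fold higher (2.18% of all genes) were IGFBP3 and IRS1, the insulin receptor substrate (145.9 with siFoxA1 and 104.5 with siCtrl, 1.39). Of 21 measured genes of hypoxia and glycolysis, 19 were higher (46.2% of all genes), with a median of 0.49. The 2 at least 2-fold higher (2.18% of all genes) were NDRG1 and PFKFB4, a regulator of glycolysis, which read 1626 with siFoxA1 and 690.9 with siCtrl (1.32). The list's median was 0.995 in shRNA replicate 1, 0.28 in replicate 2, 0.01 with R1881, -0.09 hormone-deprived and 0.03 in 22RV1. Of 7 measured metallothioneins, the metal-binding proteins, 6 were detected on both arrays and all 6 were lower, 0 of them at least 2-fold, and the list had a median of -0.77. MT1X read 4704 with siFoxA1, against 9046 with siCtrl (-0.98), MT1G 840.1 with siFoxA1 and 1802 with siCtrl (-0.98), and MT2A 3643 with siFoxA1 and 6264 with siCtrl (-0.78). Cytosolic ribosomal proteins (22 measured, -0.20 to 0.24, median 0.05), oxidative phosphorylation (20, median -0.08), sterol synthesis (14, median 0.12) and the unfolded protein response (22, median 0.07) had 0 genes at least 2-fold apart. Histones (13 measured, median 0.36) and amino acid transport with one-carbon metabolism (16, median -0.17) had 0 as well. In fatty acid genes (15 measured, 13 higher against 46.2% of all genes, median 0.33) 2 were at least 2-fold higher (2.18% of all genes). Of the 14 detected on both arrays, 1 was. The desaturase FADS2 differed by 1.26 and the acyl-CoA synthetase ACSL5 by 2.02, at least 3.67-fold, though another ACSL5 probe gave -0.96. Heat shock genes (10 measured, median 0.10) and ERBB receptors and ligands (8, median 0.15) had 1 each at least 2-fold higher (2.18% of all genes), CRYAB and the receptor inhibitor ERRFI1 (1.12). The 10 reference genes such as ACTB (0.11) and GAPDH (0.28) had a median of -0.01.

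Families of enzymes gathered by symbol after the values were seen are given as counts. A gene detected on 1 array alone is brighter there by that choice, so counts were taken over members detected on both arrays, beside 2.18% of all genes at least 2-fold higher and 1.18% lower. Of 7 UGT2B genes with a probe, 2 were detected on both arrays, UGT2B11 and UGT2B28, both at least 2-fold lower, and 4 on the siCtrl array alone. Of 9 UGT1A genes, 2 were detected on both, both higher and 1 at least 2-fold, and 3 on the siFoxA1 array alone. UGT1A6, which conjugates phenols, read 213.5 with siFoxA1 and an undetected 100.1 with siCtrl, at least 5.53-fold higher, with another probe at 1.31. Since UGT1A transcripts share their 3' exons, probes cannot be assigned to 1 member with certainty. CYP1A1 and CYP1A2, the aryl hydrocarbon-induced cytochromes, read 160.8 and 162.8 with siFoxA1, against 105.8 and 96.8 with siCtrl, and the second was undetected with siCtrl, at least 3.56-fold higher. Of 7 alcohol dehydrogenases, 3 were detected on both arrays, all 3 lower and 2 at least 2-fold. Of 49 keratins with a probe, 9 were detected on both arrays, 7 of them higher and 2 lower, with 4 of the higher and 0 of the lower ones 2-fold or more apart, and 6 more on the siFoxA1 array alone and 3 on the siCtrl array alone.

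FoxA1 binds forkhead sequences, so the 250 bases before each gene's start were searched for TGTTTAC and TGTTTGC on both strands, in RefSeq promoters of GRCh38.p14. These 2 motifs differ in a base and cannot overlap each other in full. Of 123 lower genes with a promoter in the table, 4 (3.25%) held a match, of 238 higher genes 15 (6.3%), of 10843 measured genes 470 (4.33%) and of all 27305 promoters 1652 (6.05%). Matches also lay in the promoters of SDCBP2 (2.60) and MICAL1 (2.50), both higher, which are not printed, so the windows below are examples and do not follow these shares. They show a match, in capitals, in the promoters of ADH1C and UGT2B15 (lower with siFoxA1), ACTA2 (higher) and FOXA1 itself. Each is read along the gene's strand, and a match is a run of letters and not a site. The match starts 37 bases before the start of ADH1C, 183 before UGT2B15, 221 before ACTA2 and 235 before FOXA1. All 4 genes lie on the minus strand and their matches are on the strand opposite to the gene, so the capitals read as the reverse complement of the motif.
ADH1C, chr4:99352751-99352810: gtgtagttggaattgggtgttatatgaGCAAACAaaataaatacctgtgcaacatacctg
UGT2B15, chr4:68670803-68670862: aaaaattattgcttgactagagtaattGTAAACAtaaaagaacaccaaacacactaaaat
ACTA2, chr10:88991526-88991585: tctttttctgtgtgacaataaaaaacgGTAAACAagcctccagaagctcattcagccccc
FOXA1, chr14:37595452-37595499: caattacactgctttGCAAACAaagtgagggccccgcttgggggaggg

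The stable FoxA1 shRNA in the same line gave the nearest comparison. It was read on other arrays at another facility and normalized separately, so levels were not compared and each pair's own difference was. In 11848 genes measured in both tables, 48 (0.405%) were at least 2-fold higher in all 4 shRNA pairs and 15 (0.127%) at least 2-fold lower in all 4. Of the 48, all were higher with the siRNA and 37 (77.1%) at least 2-fold higher, and their median siRNA difference was 1.98. Of the 15, all were lower with the siRNA and 9 (60%) at least 2-fold lower, with a median of -1.30. These genes needed detection on either siRNA array. A gene detected on 1 siRNA array alone is brighter there by that choice, so its siRNA direction is not an independent reading. Such genes were not counted apart here, nor in the counts with a shRNA pair left out below. Over all 11848 genes the siRNA pair had 46.4% higher and 53.5% lower, with 291 (2.46%) 2-fold or more higher and 156 (1.32%) 2-fold or more lower.

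From the other side, 218 of the 291 siRNA-higher genes (74.9%) were higher in all 4 shRNA pairs, against 17.5% of all genes, and 0 were lower in all 4. Of the 156 siRNA-lower genes, 121 (77.6%) were lower in all 4 shRNA pairs, against 18.9% of all genes, and 0 were higher in all 4. At 2-fold in all 4 shRNA pairs, the shares were 37 of 291 (12.7%) and 9 of 156 (5.77%). Without replicate 1, the pair that stands apart, 50 genes were at least 2-fold higher in the other 3 shRNA pairs. Of these, 76% were at least 2-fold higher with the siRNA, close to the 77.1% over all 4 pairs. In the same 3 pairs 18 genes were at least 2-fold lower, 17 of them lower with the siRNA. The share at least 2-fold lower with the siRNA was 50%, below the 60% over all 4 pairs. The replicate 1 pair had the highest correlation with the siRNA differences across the 11848 genes (Pearson 0.69, Spearman 0.57) and the hormone-deprived pair the lowest (0.45 and 0.38). Genes are not independent replicates, and the points of a pair share its arrays.

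S1PR3, CRYAB, DDC and SLC45A3 were among the genes that held in all 4 shRNA pairs. S1PR3 differed by 6.16 in replicate 1, 5.04 in replicate 2, 3.07 with R1881 and 3.50 hormone-deprived, beside 3.72 with the siRNA. DDC differed by -3.94, -3.06, -3.30 and -2.004 in that order, beside -2.36. Other genes followed in 3 pairs and were near 0 in the hormone-deprived one. KRT16 differed by 4.28, 3.68, 1.38 and 0.46, SNAI2 by 3.01, 2.46, 1.54 and 0.15, and ADH1C by -1.40, -1.25, -1.19 and 0.32. The TRIM genes were lower in those 3 pairs too, with TRIM51, gathered by symbol, at -2.31, -2.92, -1.75 and 1.03, beside 701.0 with siFoxA1 and 2076 with siCtrl (-1.45). RDH12 differed by -0.03, 0.00, -0.75 and -0.16, below 2-fold in all 4.

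**Figure D4:**
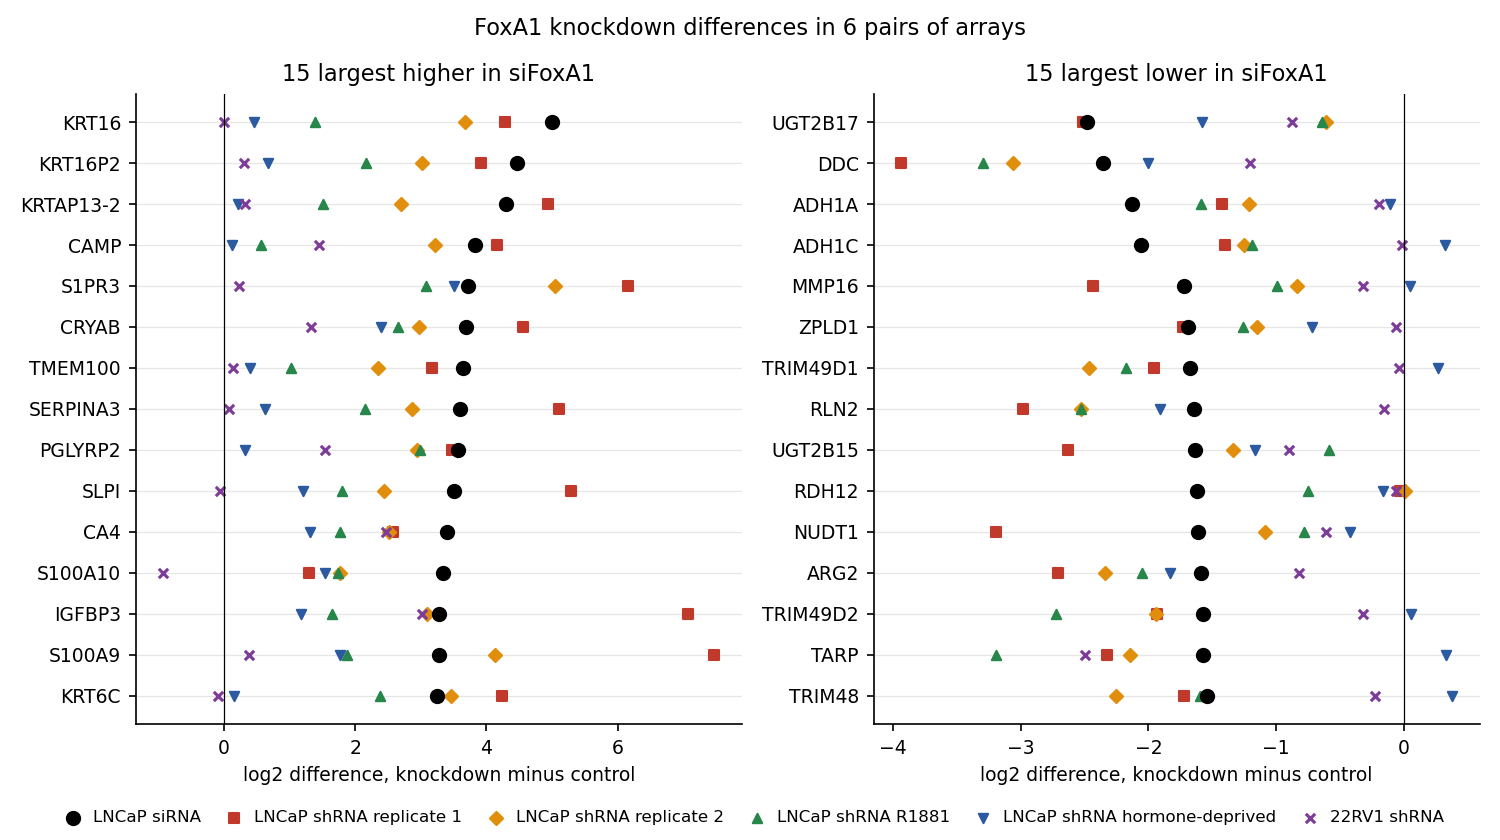
Log2 difference (knockdown minus control) in the siRNA pair (large black circles), the 4 LNCaP shRNA pairs and the 22RV1 shRNA pair (crosses) for the 15 largest higher (left) and 15 largest lower (right) genes of the siRNA pair. These genes were chosen by the black circles. In 22RV1, KRT16, SLPI and KRT6C lie at or near 0, and IGFBP3 and CA4 lie at 3.02 and 2.47.

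In 22RV1, a prostate cancer line from a relapsed xenograft, 203 of 12290 genes (1.65%) were at least 2-fold higher with the FoxA1 shRNA and 166 (1.35%) at least 2-fold lower. Of 243 siRNA-higher genes measured there, 170 (70%) were higher in 22RV1, against 48.6% of all genes, and 45 (18.5%) at least 2-fold higher. Of 147 siRNA-lower genes, 126 (85.7%) were lower in 22RV1, against 51.3% of all genes, and 29 (19.7%) at least 2-fold lower. The 45 are 22.2% of the 203, and the 29 are 17.5% of the 166. The correlation across genes was 0.33 (Pearson) and 0.27 (Spearman), below that with each LNCaP shRNA pair. Line, knockdown method, facility and, by title, androgen exposure all differ between some of these pairs, and their parts cannot be told apart.

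**Figure D5:**
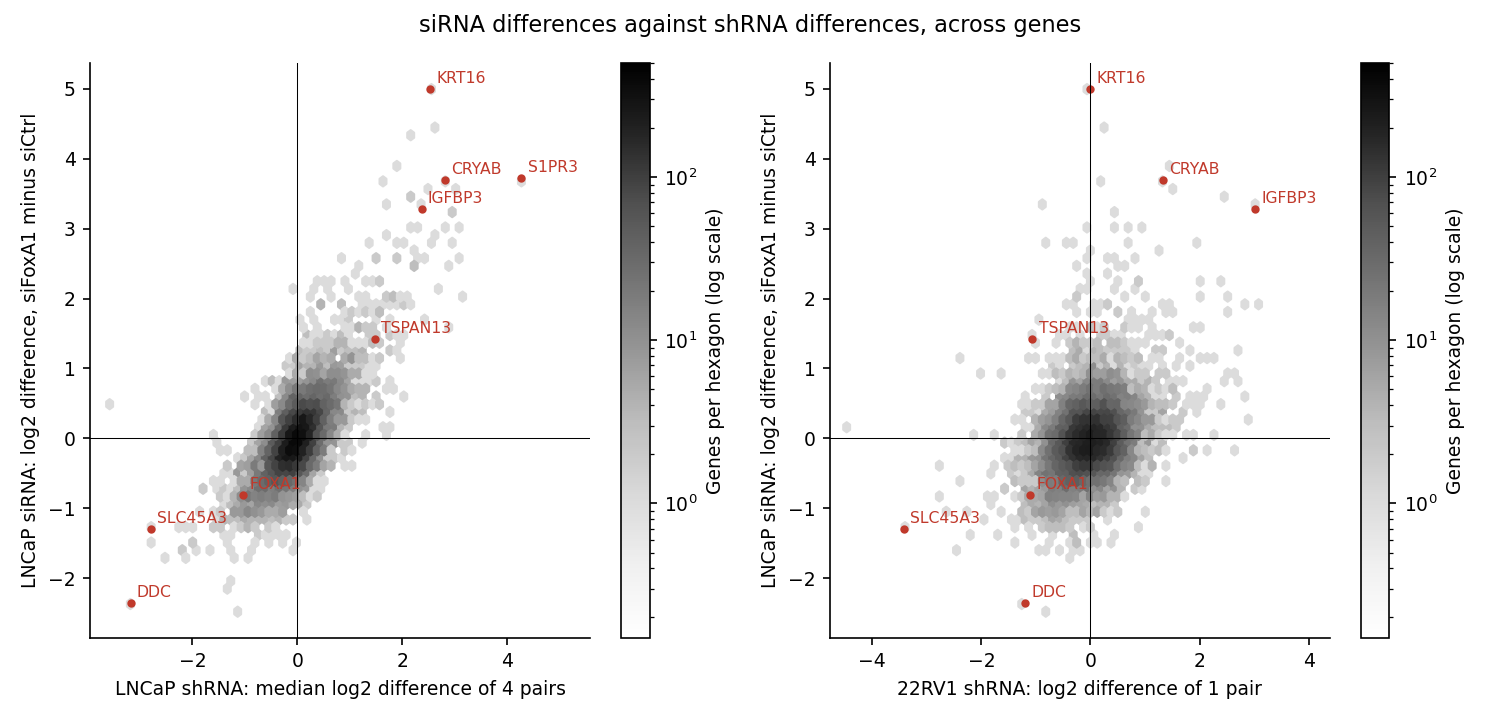
Log2 difference of the siRNA pair (vertical axis) against the median of the 4 LNCaP shRNA pairs (left) and the 22RV1 shRNA pair (right), as genes per hexagon on a log colour scale, with named genes in red. In the left panel the cloud runs along the diagonal (Pearson 0.71 across 11848 genes), and in the right panel it is rounder (0.33).

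In all 6 pairs, 9 genes were at least 2-fold higher with FoxA1 knockdown and 2 at least 2-fold lower. The higher ones were CRYAB, CA4, IGFBP3, SGK1, SCGB2A1, MME, IFNGR1, DEPTOR and SIDT2. SGK1, a kinase induced by steroids, read 1634 with siFoxA1, against 285.7 with siCtrl (2.74), and differed by 1.28 in 22RV1. MME (neprilysin), a cell-surface peptidase, read 1503 with siFoxA1 and 739.4 with siCtrl (1.10), with other probes down to 0.59. IFNGR1, a chain of the interferon gamma receptor, read 1016 with siFoxA1 and 402.1 with siCtrl (1.48). DEPTOR, an inhibitor of mTOR kinase, read 390.6 with siFoxA1 and 172.9 with siCtrl (1.68), SIDT2, a lysosomal RNA transporter, 1950 with siFoxA1 and 849.6 with siCtrl (1.25), and SCGB2A1, a mammaglobin, 203.8 with siFoxA1 and 110.3 with siCtrl (1.95). The 2 lower ones were DDC and SLC45A3. SLC45A3 differed by -3.41 in 22RV1 and by -3.48 to -1.63 in the LNCaP shRNA pairs, beside -1.30 with the siRNA, the smallest of the 6.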

How the data were processed

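RNA of LNCaP cells was hybridized, biotin-labelled, to Illumina bead arrays and read in GenomeStudio, whose version is not given, per the submitters' processing notes. In the deposited file that covers the siRNA and 22RV1 cells, the values are raw probe intensity that the authors did not normalize between arrays. Per the file headers, each array also has a detection p-value, but these columns hold whole numbers and were not used. The deposited LNCaP shRNA table holds background-subtracted intensity and a detection p-value for each probe. Each siRNA column ranked its probes as the deposited matrix column of the same sample does.

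In R 4.3.3 with limma 3.58.1, the siRNA and 22RV1 table was corrected with normexp (background from the mode, offset 16) and quantile normalized over its 4 arrays, and the shRNA table was corrected with neqc (offset 16). The log2 offset understates the folds of dim probes. A probe was detected above the mode plus 1.645 SD. On the shRNA arrays this rule gave the call of a deposited detection p below 0.05 for 91.6 to 99.4% of probes. Of 47315 probes, 30111 carried 1 gene symbol in the platform annotation and 17204 several or none. A gene was read on its brightest probe. Between 2 LNCaP arrays, a call was a difference of at least 2-fold with detection on the brighter array. The counts over all 4 shRNA pairs needed detection on an array of at least 1 of those pairs. The 2-fold shares in 22RV1 needed detection on either 22RV1 array. No test was run, since each side is 1 array, whose number limits the precision.

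Named genes were FOXA1, KLK3, SNAI2, CDH1 and VIM, the 15 largest differences each way, up to 6 members of each of 33 lists and genes shared by all 6 pairs. The members and lists were chosen with earlier results of these data known, and families by symbol after the values were seen. Of 568 list members, 468 were measured and 38 have no named probe here. The count and fold steps were tested on simulated data.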

Additional observations from a re-analysis of the deposited data

Results flagged for a closer look

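In 4 genes the siRNA pair and the 22RV1 pair were each 2-fold or more apart, in opposite directions, and the difference between the lines was not tested. TSPAN13, a tetraspanin, read 4880 with siFoxA1 and 1897 with siCtrl, a difference of 1.42, beside -1.06 in 22RV1. It differed by 1.26 to 1.58 in the 4 LNCaP shRNA pairs. RAB36, a small GTPase, read 149.1 with siFoxA1 and 244.9 with siCtrl, a difference of -1.05, beside 1.03 in 22RV1, and by -1.16 to -0.84 in the LNCaP shRNA pairs. CSRP2, a LIM-domain protein, differed by 1.21 at intensities of 156.8 with siFoxA1 and 112.6 with siCtrl, beside -2.40 in 22RV1. CCN2, a matricellular protein, differed by 1.11 at 129.8 with siFoxA1 and 102.3 with siCtrl, beside -1.12 in 22RV1. For CSRP2 and CCN2 the LNCaP shRNA pairs other than replicate 1 (0.92 and 1.77) ranged from -0.36 to 0.20. TSPAN13 and RAB36 thus had the siRNA direction in every LNCaP pair, and CSRP2 and CCN2 did not reach 2-fold in any LNCaP shRNA pair but replicate 1 of CCN2.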

How the results depend on the processing

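With 1 array a side, each count is a value with no test. No paired analysis was possible because the siFoxA1 and siCtrl groups have 1 array each and the results come from no test. The counts of 300 higher and 162 lower genes depended most on the background correction. They were 171 and 52 with a normexp offset of 50 and 114 and 29 without background correction, where 76.7% and 79.7% of calls were higher, against 64.9% as reported. Quantile normalization of the 2 siRNA arrays alone, median scaling, cyclic loess, the deposited matrix, detection on both arrays, the mean of detected probes and no filter on dim probes gave 257 to 359 higher and 143 to 217 lower genes. The FOXA1 difference ranged from -0.85 to -0.77. Of 75 named genes at least 2-fold apart, besides FOXA1, 75 kept their sign under the 9 other settings where these gave a value, and 48 stayed at least 2-fold apart. With an offset of 50, the list medians moved to -0.651 (androgen-repressed) and 0.537 (basal). Without background correction they were -0.421 (androgen-repressed), 0.43 (NF-kB), 0.308 (immediate early), -0.515 (metallothioneins) and 0.352 (basal, 1 gene). With detection on both arrays they were 1.07 (NF-kB), 0.421 (ERBB), 0.472 (neuroendocrine) and 0.187 (fibroblast and muscle). Without the filter on dim probes they were 0.355 (motility) and 0.0249 (basal). The median's sign turned under some setting in the heat shock, fibroblast and reference lists, all near 0. Leaving out each shRNA pair in turn, chosen after seeing the data, left 73.3 to 77.6% of the genes at least 2-fold higher in the remaining pairs at least 2-fold higher with the siRNA, and 50 to 54.2% of the lower ones. Signal over background limits the folds of 43 higher and 19 lower genes, which were undetected on the dimmer array. The cause of these shifts was not tested.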

Other observations

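Several genes outside the lists, chosen after their values were seen, were far apart on the 2 arrays. IRX3, a homeobox factor, read 4651 with siFoxA1 and 676.2 with siCtrl (2.82), and differed by 3.02, 2.95, 2.17 and 1.22 in shRNA replicate 1, replicate 2, the R1881 pair and the hormone-deprived pair, and by -0.28 in 22RV1. SOX9, a factor of progenitor and duct cells, read 549.7 with siFoxA1 and 140.9 with siCtrl (2.75), beside -0.84 in 22RV1. EPAS1, the hypoxia-inducible factor 2 alpha subunit, read 237.7 with siFoxA1 and an undetected 98.2 with siCtrl, at least 6.43-fold higher. LDOC1, a small nuclear protein and among the brightest of the higher genes, read 5688 with siFoxA1 and 1509 with siCtrl (2.00), and was higher in all 4 LNCaP shRNA pairs (1.49 to 2.63) and in 22RV1 (0.98).

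PI3 (elafin), another secreted elastase inhibitor, read 1059 with siFoxA1 and 188.5 with siCtrl (2.96), and PIP, prolactin-induced protein, 513.7 with siFoxA1 and 151.1 with siCtrl (2.45). HMOX1, heme oxygenase, read 1152 with siFoxA1 and 248.7 with siCtrl (2.52). On the lower side, NUP93, a nuclear pore protein, read 1383 with siFoxA1, against 4135 with siCtrl (-1.48), MCCC2, an enzyme of leucine breakdown, 444.9 with siFoxA1 and 1305 with siCtrl (-1.48), and FOXM1, a forkhead factor of the mitotic programme, 190.8 with siFoxA1 and 401.6 with siCtrl (-1.29, second probe -0.85). FOXM1 differed by -2.27 to -0.24 in the LNCaP shRNA pairs and by -0.60 in 22RV1.

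Of the 17204 probes with several or no gene symbol, 7991 were detected on at least 1 siRNA array, and 58 (0.726%) were at least 2-fold higher with siFoxA1 and 34 (0.425%) at least 2-fold lower.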
